A study of Mus musculus with 28 samples.

Results

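Over the first week of reprogramming, mouse fibroblasts whose p38 kinases had been inhibited before induction were compared with themselves: the pre_p38i arm on day 7 against the same arm on day 1, with 2 libraries on each day. The members were taken from the sample labels, and are 4 of the 28 libraries in the series, with the 4 pre_p38i libraries of days 3 and 5 giving the course between these ends. The starting cells were primary mouse embryonic fibroblasts (MEFs), labelled WT for genotype, which in the study carried the OG2 transgene (a GFP reporter driven by Oct4 regulatory sequence) and came from embryos of OG2 males and 129 females. The cells of the pre_p38i, p38i and ctr arms were all infected with pMXs retroviruses for Oct4, Klf4 and Sox2 (OKS), in 2 rounds, and day 0 is the day on which they were moved to the chemically defined induction medium iCD1. In pre_p38i the inhibitor SB203580 was present before induction, in p38i it was present during induction, and ctr is OKS without it, which the study calls DMSO. All libraries of day 1 already held the 3 factors, so the comparison is of early with late reprogramming and not of fibroblasts with reprogrammed cells. Each library is bulk RNA from a whole well of infected cells, in which colonies and cells that do not progress are measured together, so fewer cells of a type and less RNA per cell cannot be told apart. The labels do not say whether replicates were separate cultures, and the p-values therefore measure only the spread between these libraries, which may be technical.

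Fibroblasts are mesenchymal cells: they lay down collagen, pull on it through actin stress fibres, and hold few cell-cell junctions. When Oct4, Sox2 and Klf4 are forced into them, the fibroblast programme is shut down, epithelial junction genes are switched on in what is known as the mesenchymal-to-epithelial transition, and the cells' own pluripotency network starts late and in a minority of cells. The p38 kinases are stress-activated MAP kinases, and cell division is commonly needed for fibroblasts to change identity.

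The deposited value of a gene is a whole number that was read as TPM (a share of the library's transcripts that is already divided by gene length) rounded down, so a value of 0 means below 1 and is written here as listed at 0. The 8 libraries of the arm summed to between 991326 and 992030, held between 13291 and 14100 genes at 1 or more, and gave between 6.28% and 8.01% of their total to their 10 highest genes. Mitochondrial genes took between 3.04% and 4.77%. Values of the 2 replicates of a day are written with a slash between them, replicate 1 first (794/866). The number of reads is unknown, so no counting interval is given, and the error of a change is the standard error from limma, written after ±. Values were compared as log2(value + 1), a scale that understates the change of low genes, and 13230 genes whose mean over the 28 libraries was 1 or more were tested. A pair of days holds 2 libraries each, for which the smallest p of an exact permutation test is 0.333, so the tests of single genes rest on the spread shared over all 14 groups. A gene that passed limma's Benjamini-Hochberg adjusted p of 0.05 is said to have risen or fallen. Between the 2 replicates of a day of the arm, the root mean square difference over the genes tested was between 0.339 and 0.365 on the log2 scale.

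Between day 1 and day 7 of the pre_p38i arm 8414 of 13230 genes changed (63.6%), of which 4775 rose (36.1%) and 3639 fell (27.5%). The median change of all genes tested was 0.103 on the log2 scale. Quantile normalization turned the balance, with 3873 risen and 4343 fallen and a median of -0.030. At least 2-fold changes were fewer, with 1809 genes up (13.7%) and 1400 down (10.6%), and 393 genes rose but 99 fell by 8-fold or more. Rises were therefore larger than falls at the extreme, with 78 genes up and 7 down by 32-fold or more on this scale. The largest rises were those of a secreted hormone precursor, antiviral and antigen-processing genes, and epithelial and alkaline phosphatase genes of reprogramming cells, and the largest falls included those of actin-binding, matrix and secreted proteins.

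The steepest rise was that of Trh (chromosome 6, 92242061 to 92244650, GRCm38), the precursor of thyrotropin-releasing hormone. Its values were 0/1, 794/866, 1640/1657 and 1904/2010 on days 1, 3, 5 and 7. Both day 1 libraries were at or below 1 and no later library was below 794, and the change was 10.44 ± 0.17 on the log2 scale, adjusted p = 6.41e-20. Gpx2, a selenium-dependent glutathione peroxidase of epithelia, was listed at 0 in both day 1 libraries. It then read 9/8 on day 3, 63/51 on day 5 and 211/200 on day 7 (adjusted p = 5.94e-19 by limma). Epcam, an adhesion molecule of epithelial and pluripotent cells (chromosome 17, 87635979 to 87651106), climbed from 2/2 through 21/24 and 104/93 to 332/358, a change of 6.85 ± 0.20 (adjusted p = 2.53e-16). Alpl, the tissue-nonspecific alkaline phosphatase by which reprogramming colonies are commonly stained, went from 2/2 to 73/57, 154/139 and 319/319 (6.74 ± 0.26, adjusted p = 2.18e-14). In all 4 genes both libraries of a day lay above both of the day before. Clec3b, which encodes the secreted protein tetranectin, had reached its level by day 5, with 1/0, 66/63, 223/224 and 217/236 on days 1, 3, 5 and 7 (7.33 ± 0.19, adjusted p = 6.18e-17). Dio3, an imprinted deiodinase that inactivates thyroid hormone, was listed at 0 on day 1 and then read 27/28, 71/69 and 118/120 on days 3, 5 and 7 (adjusted p = 5.48e-15). The other 6 of the 12 largest rises were Psmb8, Tgtp1, Tgtp2, Ifi27l2a, Oas2 and Ifi47, all known targets of interferon, which are described with that group.

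**Figure D1:**
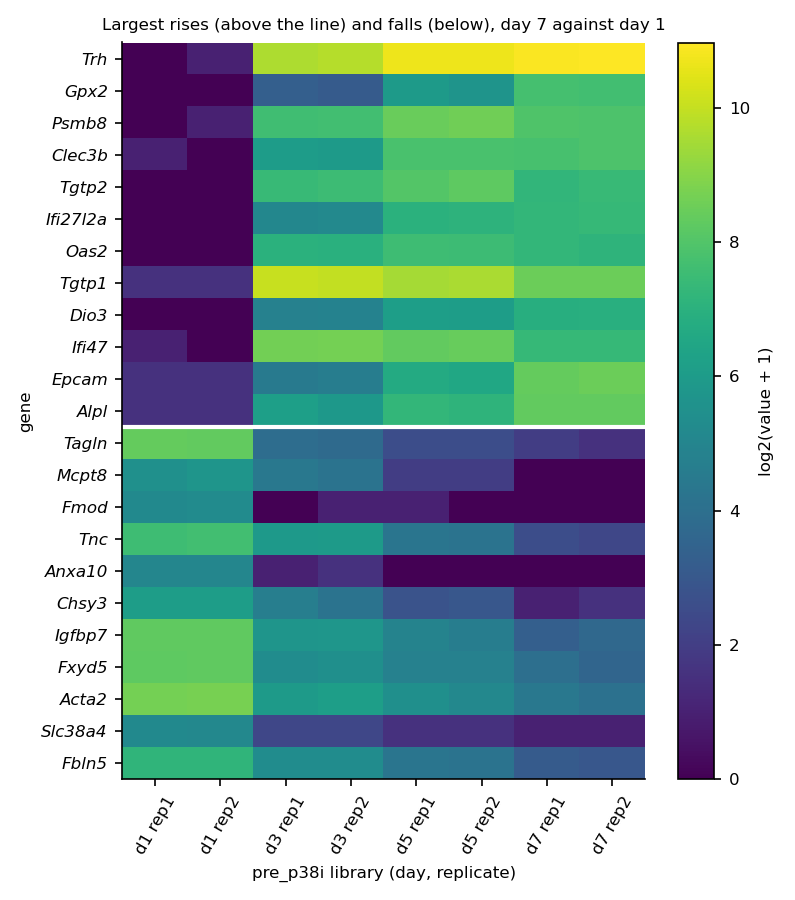
Values of the 12 largest rises and of 11 of the 12 largest falls from day 1 to day 7, in each of the 8 pre_p38i libraries (columns, by day and replicate), coloured by log2(value + 1). The replicates of a day share their shade, most rising genes are already lit on day 3, and Epcam, Gpx2 and Alpl brighten at each step to day 7.

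Among the falls, Tagln (chromosome 9, 45929619 to 45936058), which encodes the smooth muscle protein transgelin, went furthest. It read 334/325, 14/13, 5/5 and 3/2 on days 1, 3, 5 and 7, so most of its loss after day 1 had occurred by day 3 (-6.58 ± 0.13, adjusted p = 8.89e-19). Acta2, smooth muscle actin of stress fibres, had the same shape, with 405/421 on day 1, 62/70 on day 3 and 20/16 on day 7 (-4.45 ± 0.11, adjusted p = 1.66e-17). Tnc (chromosome 4, 63959785 to 64047015), a matrix glycoprotein of injured and growing tissue, fell by a like amount at each step instead, from 186/199 through 58/63 and 18/17 to 5/4 (-5.14 ± 0.086, adjusted p = 7.19e-20). Fbln5, which organises elastic fibres, was 145/144 and then 8/7 (-4.10 ± 0.058, adjusted p = 7.51e-21). Igfbp7, a secreted binder of insulin-like growth factors, was 310/314 and then 9/12 (-4.78 ± 0.13). Fxyd5, a regulator of the sodium pump, was 304/315 and then 15/11 (-4.49 ± 0.098). The rule that picked these genes required that day 1 and day 7 not overlap, so their separation is no added support. Fmod, a small proteoglycan that binds collagen, went from 36/38 to 0 in both libraries (adjusted p = 6.28e-12 by limma). Anxa10, an annexin, went from 32/32 to 0 in both (adjusted p = 5.4e-10), and Mcpt8, a protease of basophils, from 45/52 to 0 in both (adjusted p = 2.41e-12). These 3 genes were thus not seen at 1 or more on day 7. Chsy3, a chondroitin sulfate synthase, went from 68/69 to 1/2 (-4.83 ± 0.19). Slc38a4, an imprinted amino acid transporter, went from 36/34 to 1/1 (-4.17 ± 0.17). Anxa10, Mcpt8 and Chsy3 were lower in the ctr MEFs without induction (MEF_ctr, 2 libraries) than on day 1, with means of 0, 5.5 and 9.5. MEF_ctr had no inhibitor, so this difference mixes induction with the pretreatment. Day 1 of ctr, also without inhibitor, had means of 20, 59 and 56.5 for these 3 genes. Tagln and Acta2 were instead higher in MEF_ctr than on day 1 of pre_p38i, with means of 3216.5 and 6023.5. Tagln shares exon sequence with genes on the opposite strand (Gm48529 and Pcsk7), and the counting is not stated to use strand, so reads there cannot be assigned with certainty.

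The genes of the cells' own pluripotency network rose together, and most of them stayed below 100 on day 7. Of 36 genes on the pluripotency list, 24 passed the filter on low values, and of these 20 rose and 1 fell, where 36.1% of all genes tested rose. The median change of the 24 was 3.28 on the log2 scale, against 0.103 over all genes tested. The filter is on the mean over all 28 libraries, so a gene that is silent in MEFs passed it only if later libraries held it. With a stricter minimum mean of 5 the count was 13 risen of 17. The other 12, which include Dppa2, Dppa3, Dppa4, Utf1, Tdgf1, Lin28a, Prdm14 and Tcl1, were at 5 or less in every library of the arm.

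Nanog (chromosome 6, 122707489 to 122714633), the homeodomain factor that secures the pluripotent state, was listed at 0 in the 4 libraries of the first 2 days and then read 3/3 and 28/28 (adjusted p = 4.53e-12 by limma). Zfp42, which encodes the zinc finger protein Rex1, started earlier, with 0/0, 10/13, 22/22 and 44/45 on days 1, 3, 5 and 7 (adjusted p = 2.15e-12). The list thus held early and late genes. Among the early ones, Tdh, the threonine dehydrogenase on which mouse embryonic stem cells depend, went from 3/3 to 67/74 by day 3 and 210/223 by day 7 (5.76 ± 0.23, adjusted p = 2.47e-14). Tfcp2l1, a transcription factor of naive pluripotency, went from 0/1 to 20/18 and then 57/53 (5.31 ± 0.20). L1td1, an RNA-binding protein, was already 38/37 on day 1 and was 163/179 on day 3 and 193/196 on day 7 (2.34 ± 0.09). Gdf3, a TGF-beta family ligand, was listed at 0 on day 1 and read 9/10, 46/40 and 73/77 afterwards (adjusted p = 6.1e-17). These 4 genes had most of their rise, on the log2 scale, behind them by day 5. The late ones appeared between day 5 and day 7. Dppa5a, a marker of embryonic stem cells, went from 0/1 to 50/41 in that interval. Esrrb, an orphan nuclear receptor, went from 0 in both libraries to 8/10, and Sall4, a zinc finger factor, from 1/1 to 11/9. Klf2 kept a low level to day 5 (9/9) and then read 31/30 (day 7 against day 1 3.39 ± 0.16, adjusted p = 4.27e-13). Dppa5a is 95.9% identical over 417 bases to a stretch of Pigp, so part of its reads could be assigned to either gene. Klf5 (9/9 and 8/7), Tbx3 (8/8 and 9/4) and Tex10 (42/43 and 39/36) did not pass the test. The 1 member that fell was Spp1, a secreted phosphoprotein that fibroblasts and macrophages make as well, which read 620/598, 474/415, 239/215 and 57/71 on days 1, 3, 5 and 7 (-3.24 ± 0.084, adjusted p = 5.87e-17).

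The promoters of Nanog and Zfp42 are printed because their genes mark the late and the early members and their windows hold letters of the Oct4 and Sox2 binding motifs. They are RefSeq sequences of GRCm38.p6, taken from the 250 bases before to 50 after the gene start, in the direction of the gene, and 21 of the 36 listed genes had such a window. The Nanog stretch (chr6:122707377-122707465, plus strand) has the Oct4-Sox2 core GCATNACAA in capitals, and the Zfp42 stretch (chr8:43307148-43307235, minus strand) has the octamer ATGCAAAT, on the reverse strand, in capitals.
Nanog: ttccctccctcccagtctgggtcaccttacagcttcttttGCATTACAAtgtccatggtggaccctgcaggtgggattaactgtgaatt
Zfp42: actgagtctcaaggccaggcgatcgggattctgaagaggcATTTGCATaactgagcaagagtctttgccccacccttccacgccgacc
Both strands were searched. The Oct4-Sox2 core was in 1 of the 21 windows (Nanog), in 0.855% of the windows of 27025 genes and in 0.458% of those of the 9831 genes tested that had one. The octamer was in 2 of the 21 (Zfp42 and Spp1), in 1.97% of the 27025 and in 1.67% of the 9831. A match is a stretch of letters and not a measured binding site.

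The 3 retroviral factors fell over the same days. Pou5f1, which encodes Oct4, read 3768/3846, 3774/3686, 2886/2862 and 1918/1915 on days 1, 3, 5 and 7 (-0.99 ± 0.045, adjusted p = 2.54e-13 by limma). Sox2 went from 1256/1327 to 783/807 (-0.70 ± 0.18, adjusted p = 0.00231), and Klf4 from 870/847 to 600/588 (-0.53 ± 0.083, adjusted p = 1.51e-05). For Pou5f1 both day 7 libraries lay below both libraries of every earlier day. These values pool virus and endogenous transcripts, which gene-level values cannot separate. The fall of Sox2 did not pass with a pseudocount of 0.1 (adjusted p = 0.317).

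Epithelial genes rose as a group and in step with the week. Of the 35 genes listed, 29 passed the filter, 26 rose and 1 fell (36.1% of all genes tested rose), with a median change of 3.40 on the log2 scale. With a minimum mean of 5, 15 of 17 rose. The keratin Krt8 went from 3/3 to 27/27, 65/66 and 159/174 (5.39 ± 0.22, adjusted p = 4.73e-14). Its partner Krt18 went from 4/2 to 35/38 (3.27 ± 0.29). Cdh1, which encodes E-cadherin of adherens junctions (chromosome 8, 106603351 to 106670246), read 13/13, 66/65, 138/137 and 268/263 on days 1, 3, 5 and 7 (4.25 ± 0.095, adjusted p = 5.39e-18). Each day's libraries of Cdh1 lay above those of the day before.

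Genes of tight junctions and of apical identity came up later than Cdh1. Cldn4, a claudin, read 0/1, 1/1 and 8/7 on days 1, 3 and 5 and 66/68 on day 7 (5.59 ± 0.36, adjusted p = 5.22e-11). Cldn3, another claudin, was 11/7 on day 5 and 49/48 on day 7. Cldn7 was 4/3 and then 31/30. For these 3 claudins both day 7 libraries were well above all others. The desmosomal cadherin Dsg2 was 7/7 on day 5 and 36/30 on day 7. Rab25, a small GTPase of apical recycling, was 2/2 and then 18/17. The epithelial transcription factor Elf3 was listed at 0 on day 1 and read 8/8, 31/29 and 93/87 (adjusted p = 2.07e-15). Spint1 and Spint2, inhibitors of cell-surface serine proteases, went from 0/1 to 63/71 (5.58 ± 0.36) and from 35/35 to 248/273 (2.86 ± 0.19). The protease matriptase, which they inhibit, is encoded by St14 and went from 4/4 to 69/70 (3.82 ± 0.14). The inhibitors and their target thus rose together. Dsc2, a desmocollin, fell from 22/22 to 9/8 (-1.28 ± 0.12, adjusted p = 2.5e-08), while Dsp, the desmosomal plaque protein, was 39/42 on day 1 and 54/46 on day 7 and did not pass (adjusted p = 0.203). The splicing regulator Esrp1 (3/6 on day 7), Grhl2 (2/2) and Ovol1 (listed at 0 in every library of the arm) stayed under the filter.

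**Figure D2:**
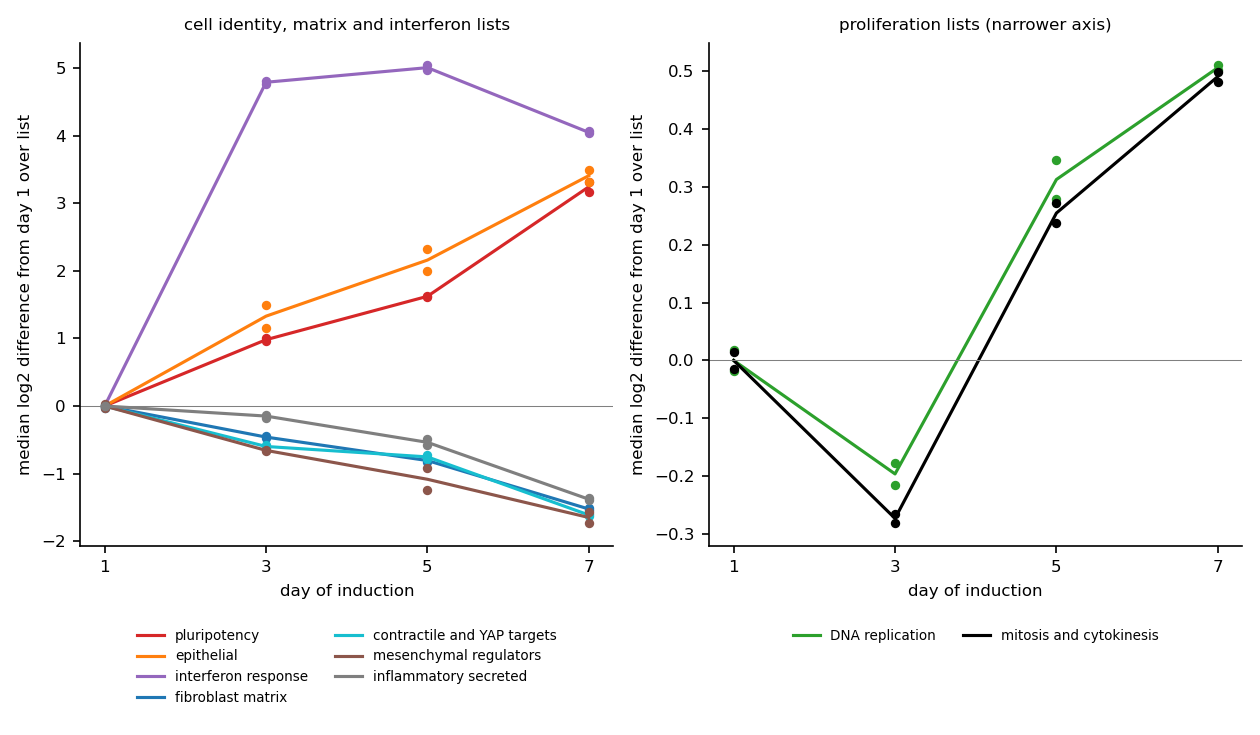
Median over the tested genes of each list of log2(value + 1) minus the day 1 mean of the pre_p38i arm (y axis, log2), by day of induction (x axis), with a point per library and a line through the mean of the 2. Pluripotency and epithelial medians climb at every step, the interferon median jumps by day 3 and is lower on day 7 than on day 5, matrix and mesenchymal medians fall at every step, and the proliferation lists, on a narrower axis, dip on day 3 and end near 0.5.

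Genes of fibroblast identity fell over the same days. Of 26 genes on the list of mesenchymal regulators and markers, 23 passed the filter, and 20 of them fell and 2 rose (27.5% of all genes tested fell), with a median of -1.65 on the log2 scale. The labelled cell type had its defining markers on day 1, when Col1a1, the main fibrillar collagen, read 717/773. Vim, which encodes the intermediate filament vimentin, read 3859/4188 on day 1 and was still 1680/1590 on day 7 (-1.30 ± 0.054, adjusted p = 5.36e-14). Thy1, a surface glycoprotein of fibroblasts, went from 83/90 to 15/13 (-2.55 ± 0.11). Among transcription factors, Prrx1, a homeodomain factor of limb and fibroblast mesenchyme, went from 193/201 to 127/124, 90/76 and 43/42 (-2.19 ± 0.076, adjusted p = 3.97e-15). Snai2, a repressor of E-cadherin, went from 20/22 to 4/4 (-2.14 ± 0.16, adjusted p = 4.89e-10). Runx2, the osteoblast regulator, went from 17/23 to 1/4 (-2.72 ± 0.31). S100a4, a calcium-binding protein long used as a fibroblast marker, went from 991/905 to 90/87 (-3.41 ± 0.12). Falls were small for the repressor Zeb2 (13/17 to 10/11, -0.47 ± 0.14) and for the N-cadherin gene Cdh2 (100/100 to 74/73, -0.44 ± 0.053). Foxd1, a forkhead factor of stromal progenitors, went the other way, from 50/46 through 155/163 and 248/232 to 291/299 (2.60 ± 0.099, adjusted p = 1.47e-14). Cdh11 (76/80 to 19/16) shares stretches of sequence with 6 tested pseudogenes, so its level is uncertain. The AP-1 motif TGANTCA was in 1 of the 15 windows found for this list, against 8.97% of the windows of 27025 genes and 6.33% of those of genes tested.

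Of 33 matrix genes 32 passed the filter, 25 fell and 3 rose (median -1.53, where 27.5% of all genes tested fell). Bgn, the proteoglycan biglycan (chromosome X, 73483602 to 73495933), fell at each step, with 710/756, 216/213, 95/99 and 44/41 on days 1, 3, 5 and 7 (-4.08 ± 0.066, adjusted p = 5.69e-20). Lox, the enzyme that crosslinks collagen, lost most of its level by day 3, from 176/185 to 29/29, and was 13/14 on day 7 (-3.65 ± 0.061, adjusted p = 7.42e-20). The fibrillar collagens differed in time: Col1a1 went from 717/773 to 340/368 by day 3, whereas Col1a2 was higher on day 3 (1535/1554) than on day 1 (1152/1209) before it fell to 377/352. Col3a1 was 331/327 on day 1 and 209/195 on day 7 (-0.70 ± 0.078). The basement membrane collagens changed little over the week as a whole. Col4a1 was 236/249 on day 1 and 251/246 on day 7 (adjusted p = 0.606). Col4a2 was 208/230, 386/416, 336/320 and 195/191 (-0.18 ± 0.07, adjusted p = 0.0313), so its highest day was day 3. The 3 that rose were Col6a2 (97/97 to 141/142, 0.54 ± 0.069) and the low genes Col15a1 (3/1 to 7/7) and Eln, which encodes elastin (1/0 to 2/2).

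Of 23 contractile genes and targets of the YAP coactivator, 21 passed the filter and 18 fell, with none risen (median -1.61). Of all genes tested 27.5% fell and 36.1% rose. Tpm2, a tropomyosin, went from 241/240 to 54/63 and 17/13 (-3.93 ± 0.12, adjusted p = 3.29e-16). Myl9, a myosin light chain, went from 41/42 to 6/10 and 4/3 (-3.25 ± 0.25). Ctgf, a matricellular protein and YAP target, was 193/197, 230/219, 133/135 and 74/75 over the 4 days (-1.38 ± 0.067). Cyr61, a close relative of it, was 98/99, 125/111, 76/80 and 29/30 (-1.71 ± 0.065). Tpm2 and Myl9 had therefore dropped by day 3, when both YAP targets were slightly higher than on day 1. Srf, the factor that drives many of the contractile genes, was 23/23 on day 1 and 21/22 on day 7 (adjusted p = 0.449).

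Interferon response genes rose almost without exception and then partly turned back. Interferon signalling runs through STAT2 and IRF9, among other factors, to promoters with interferon-stimulated response elements, and its targets include antiviral RNA sensors, guanylate-binding proteins and immunity-related GTPases, and the immunoproteasome and class I antigen presentation. Of 44 genes on the list 43 passed the filter, and 42 rose from day 1 to day 7 (36.1% of all genes tested rose). Their median change was 4.00 on the log2 scale over the 43. By day 3 all 43 had risen (median 4.79, where 24.1% of all genes tested rose), and from day 5 to day 7, 37 of the 43 fell (median -0.69, where 19.07% of all genes fell). The course was a rise by day 3 and a partial fall after day 5, and all 37 that fell in the last interval were among those that rose in the first. The exception on day 7 was Ifit2 (8/7, 24/28, 22/24 and 10/8 on days 1, 3, 5 and 7, adjusted p = 0.33 for day 7 against day 1).

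Among the signalling genes, Stat2 went from 16/19 to 178/172 and 121/125 on days 1, 3 and 7 (2.75 ± 0.091), and Irf9 from 17/18 to 133/117 and 88/88 (2.27 ± 0.093). Both had their day 7 libraries above day 1 and below day 3. The immunity-related GTPases, which attack the vacuoles of intracellular parasites, held the 3 largest changes of the list from day 1 to day 3, those of Tgtp1, Igtp and Tgtp2. Tgtp1 went from 2/2 to 1076/1000, then 718/758 and 358/361 (day 7 against day 1 6.91 ± 0.19, adjusted p = 1.45e-16). Tgtp2 went from 0 in both libraries to 165/183, 260/303 and 148/169 on days 3, 5 and 7 (adjusted p = 5.72e-14), and Igtp from 1/1 to 398/437 and 187/217 (6.66 ± 0.23). Ifi47, a GTPase of the same family that is not on the list, went from 1/0 to 402/410 and 163/161 (6.85 ± 0.31). The guanylate-binding protein Gbp2 was 7/6 on day 1, 734/751 on day 3 and 121/125 on day 7 (4.05 ± 0.20). For these GTPases, with the exception of Tgtp2, both day 7 libraries were below both of day 3. Among antiviral effectors, Isg15, a ubiquitin-like modifier, was 6/3, 441/504, 435/510 and 260/273 (5.66 ± 0.21). Ifit1, which binds foreign RNA, was listed at 0 on day 1 and read 114/131, 86/106 and 44/45 (adjusted p = 8.44e-15). Oas1a, an oligoadenylate synthetase, did not turn down: it read 2/2, 101/99, 131/134 and 152/160 on days 1, 3, 5 and 7 (5.71 ± 0.13, adjusted p = 3.71e-18). Oas2, of the same family, went from 0 in both day 1 libraries to 128/123, 187/183 and 153/141 (adjusted p = 4.24e-21). Ifi27l2a, listed at 0 on day 1, read 33/35, 126/137 and 153/160 (adjusted p = 3.47e-10), with its highest day on day 7 as for Oas1a.

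Several genes of antigen presentation were highest on day 5. The immunoproteasome subunit Psmb8 read 0/1, 197/198, 355/381 and 248/236 on days 1, 3, 5 and 7 (7.42 ± 0.42, adjusted p = 6.81e-12). Psmb9, another subunit, was listed at 0 on day 1 and read 83/102, 131/159 and 99/107. H2-K1, a class I heavy chain, read 73/68, 519/490, 2250/2356 and 1724/1738 on days 1, 3, 5 and 7 (4.60 ± 0.072, adjusted p = 3.53e-20). Its light chain B2m was 1081/1030, 3716/3500, 6312/6781 and 4506/4453 (2.08 ± 0.044). By value, the highest day was day 5 for these 4 genes and for Tgtp2, and day 3 for Tgtp1, Ifi47, Igtp and Gbp2. Not all of the steps passed limma's test. From day 3 to day 5 those of Psmb8 (adjusted p = 0.132), Tgtp2 (0.11), Tgtp1 (0.0711) and Ifi47 (0.559) did not. That of Psmb8 from day 5 to day 7 did not pass either (adjusted p = 0.315). Tgtp1 and Tgtp2 are 99.8% identical over 2811 bases, and Oas1a and Oas1g, Ifit3 and Ifit3b, Gbp6 and Gbp10, and the class I genes H2-D1, H2-Q6 and H2-Q7 also share near-identical stretches, so how reads were divided within each of these groups is uncertain. The exons of Psmb9 and Tap1 overlap on opposite strands by 212 bases.

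**Figure D3:**
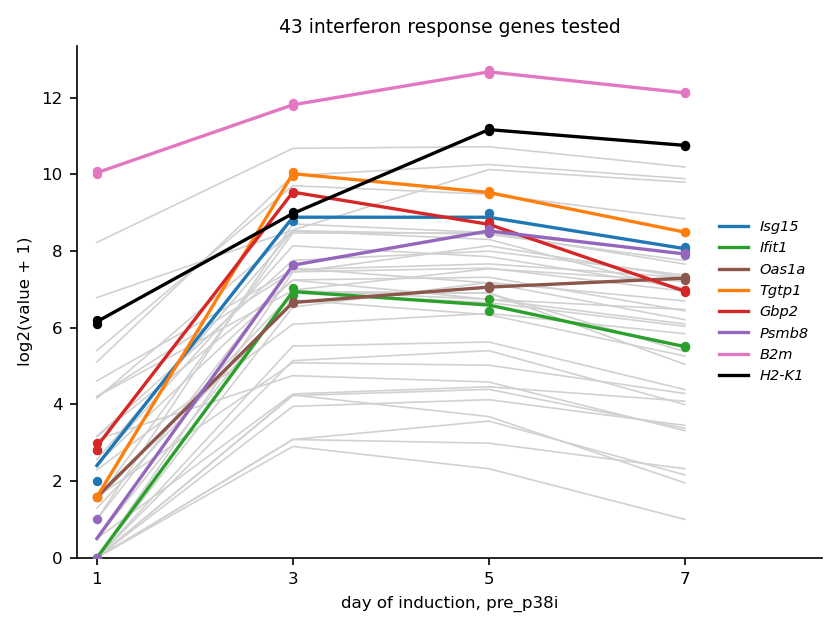
Course of the 43 interferon response genes tested in the pre_p38i arm, as log2(value + 1) (y axis) by day of induction (x axis), with the named genes coloured and labelled. All 43 rise by day 3, GTPases such as Tgtp1 then turn down by day 7, class I genes such as H2-K1 peak on day 5, and Oas1a does not turn down.

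Promoters of this group are printed because the genes rose together and many of them hold the interferon-stimulated response element core GAAANNGAA, here in capitals as it reads in the direction of the gene (its reverse complement where it lies on the other strand). They come from RefSeq (GRCm38.p6). The positions are Isg15 chr4:156200836-156200936 on the minus strand, Ifit1 chr19:34640740-34640853 on the plus strand, Tgtp1 chr11:48992275-48992363, Tgtp2 chr11:49064234-49064322 and Irgm1 chr11:48871421-48871490 on the minus strand, and Igtp chr11:58199482-58199555, Gbp2 chr3:142620565-142620653 and B2m chr2:122147508-122147596 on the plus strand.
Isg15: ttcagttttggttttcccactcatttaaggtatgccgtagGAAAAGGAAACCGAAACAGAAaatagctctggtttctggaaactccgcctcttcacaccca
Ifit1: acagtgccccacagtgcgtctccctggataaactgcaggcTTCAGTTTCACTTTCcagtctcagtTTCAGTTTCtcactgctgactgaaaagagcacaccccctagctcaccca
Tgtp1: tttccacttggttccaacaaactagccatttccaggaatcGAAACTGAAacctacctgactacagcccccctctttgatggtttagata
Tgtp2: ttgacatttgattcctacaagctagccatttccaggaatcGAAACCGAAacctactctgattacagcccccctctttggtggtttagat
Igtp: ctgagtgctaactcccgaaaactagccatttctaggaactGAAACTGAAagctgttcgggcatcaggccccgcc
Irgm1: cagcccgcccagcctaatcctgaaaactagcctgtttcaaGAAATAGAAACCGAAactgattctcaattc
Gbp2: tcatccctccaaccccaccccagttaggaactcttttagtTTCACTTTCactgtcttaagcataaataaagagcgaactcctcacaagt
B2m: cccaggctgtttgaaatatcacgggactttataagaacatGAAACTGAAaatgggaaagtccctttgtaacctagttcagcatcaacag
Of the 34 listed genes with a window, 23 held the core (67.6%), against 8.59% of the 9831 genes tested with a window and 9.76% of the 27025 genes of the table. In Isg15, Ifit1 and Irgm1 the matches overlap, so the capitals run through more than 1 copy. The list was drawn up from known interferon targets, and the share describes that list.

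Macrophage transcripts rose by day 3 like the interferon genes and are given beside them, but by day 7 they went in both directions. The summed value of the 20 macrophage markers was 125/119, 324/310, 290/270 and 157/151 on days 1, 3, 5 and 7. Of 16 that passed the filter, 12 rose by day 3 (24.1% of all genes tested rose). On day 7 against day 1, 4 were higher and 6 lower, with a median change of -0.096 on the log2 scale. These shares were 25% and 37.5%, against 36.1% risen and 27.5% fallen of all genes tested. The number lower was 1 with only these 2 days fitted and 2 with only the 4 groups of the arm. The lower ones included Lyz2 (46/38, 83/75, 37/35 and 9/7 over the 4 days, -2.26 ± 0.10). C1qa and C1qb were lower as well, but their calls were lost in some settings. The risen included Mpeg1, a perforin-like gene that interferon also induces (2/2, 65/65, 72/69 and 21/23 over the 4 days), and Laptm5 (16/15, 53/54, 86/79 and 68/73). The defining markers Cd163 and Cx3cr1 were listed at 0 in all 8 libraries, and Csf1r, Ptprc and Aif1 were at 2 or less. The part of such cells in the interferon course was not tested.

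Proliferation genes rose from day 1 to day 7 by small amounts, and most members of both lists took part. Of 33 DNA replication genes, 24 rose and 1 fell (median 0.51), and of 38 genes of mitosis and cytokinesis 27 rose and 1 fell (median 0.49). Of all genes tested 36.1% rose from day 1 to day 7. Both groups were lowest on day 3. Of the 38 mitosis genes 20 fell from day 1 to day 3 and none rose (19.4% of all genes tested fell). Then 36 of 38 rose from day 3 to day 5 (14.1% of all genes tested rose). From day 5 to day 7, 15 rose and 1 fell, where 9.82% of all genes tested rose and 19.07% fell. The directions held under quantile normalization.

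Ube2c, the ubiquitin-conjugating enzyme of the anaphase-promoting complex, shows the course, with 253/264, 215/227, 299/318 and 402/398 on days 1, 3, 5 and 7 (0.63 ± 0.072, adjusted p = 2.86e-07 for day 7 against day 1). Ccnb1, cyclin B1, was 101/99, 80/82, 122/134 and 194/177 (0.88 ± 0.10), and Top2a, topoisomerase II alpha, 121/114, 118/107, 171/170 and 214/217 (0.87 ± 0.07). In each of the 3 both day 7 libraries were above all others. Among genes of cytokinesis, Anln, anillin of the cleavage furrow, was the 1 that fell, from 118/128 to 110/95 (-0.26 ± 0.11, adjusted p = 0.0384), a call that was lost in 5 alternatives (adjusted p between 0.0561 and 0.306). Without the second replicate of day 7 its change was -0.16. Racgap1 of the central spindle was 88/93 and 111/108 (0.27 ± 0.067), and Cit, citron kinase, 8/7 and 18/14 (0.99 ± 0.21). Cep55, an abscission factor, read 19/21 on day 1 and 18/16 on day 7 and did not pass (adjusted p = 0.224). Among replication genes the MCM helicase subunit Mcm2 went from 64/68 to 57/56, 96/93 and 131/135 (1.00 ± 0.064, adjusted p = 5.47e-11). Cdt1, which loads the helicase, went from 25/28 to 64/48 (1.04 ± 0.13). The nucleotide synthesis gene Rrm1 fell, from 168/171 to 147/147 (-0.20 ± 0.042).

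Genes that govern entry into the cycle went in both directions, with 8 of 20 risen and 6 fallen, shares near the 36.1% and 27.5% of all genes tested. Cdkn1b, the inhibitor p27, rose from 17/15 to 48/47 (1.51 ± 0.11). Cdkn2a, the Ink4a/Arf locus, rose from 161/151 to 201/213 (0.41 ± 0.063). Cdkn2b, its neighbour, fell from 82/75 to 32/29 (-1.34 ± 0.082), as did Ccnd3, cyclin D3, from 408/414 to 166/168 (-1.29 ± 0.046). Rises and falls were also mixed among 22 p53 targets, with 9 up (40.91%) and 10 down (45.45%). Cdkn1a, the inhibitor p21, read 906/939 on day 1 and 706/666 on day 7 (-0.43 ± 0.044). Ccng1, cyclin G1, was 653/638 and 302/293 (-1.11 ± 0.043). Btg2, an antiproliferative factor, rose from 21/20 to 64/59 (1.54 ± 0.11).

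The enzymes that write and erase DNA methylation rose without exception among the 7 of 9 that passed the filter (median 1.16). Of all genes tested 36.1% rose. Uhrf1, which brings Dnmt1 to hemimethylated DNA, went from 66/68 to 153/150 (1.17 ± 0.067, adjusted p = 8.75e-12). Dnmt1 itself went from 73/75 to 122/119 (0.70 ± 0.066), and the oxidase Tet2 from 13/12 to 38/31 (1.39 ± 0.19). The de novo enzyme Dnmt3b was listed at 0 on day 1 and read 9/9 on day 7 (adjusted p = 7.13e-07). Tet1 (2/1 on day 7) and Dnmt3l (listed at 0 in the arm) stayed under the filter. Of 27 germline genes 1 passed the filter, Piwil2, a partner of piRNAs (0/0, 2/1, 3/3 and 9/9, adjusted p = 3.86e-10). Tex19.1 was the next, at 4/7 on day 7, and 21 of the 27, among them Ddx4, Dazl and Sycp3, were listed at 0 in all 8 libraries. The promoter windows of 25 of the 27 were found in RefSeq. The E-box CACGTG was in 13 of them (52%, against 8.09% of the 27025 and 11.7% of the 9831 genes tested with a window). The E2F6 motif GCGGGAA was in 7 (28%, against 5.29% and 9.69%). The list was drawn up from known germline genes, and the shares describe that list.

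Imprinted growth genes moved in both directions, 8 up (38.1%) and 10 down (47.62%) of 21 that passed the filter. Of all genes tested 36.1% rose, a share near that of the list, and 27.5% fell. Igf2, the fetal growth factor, read 1097/1119, 533/528, 268/270 and 112/103 on days 1, 3, 5 and 7 (-3.35 ± 0.045, adjusted p = 4.24e-21). Its neighbour, the noncoding RNA H19, rose before it fell, with 384/386, 529/554, 477/425 and 256/247 (-0.61 ± 0.07). Mest, which shares exon sequence with Copg2 on the other strand, was 113/112 and then 27/30 (-1.95 ± 0.085). Grb10, a growth-restraining adaptor, was 141/153 and then 54/53 (-1.44 ± 0.061). From the Dlk1-Dio3 domain, Meg3 rose from 15/8 to 39/44 (1.82 ± 0.25), Rian, another noncoding RNA, from 83/84 to 185/174 (1.09 ± 0.072), and Dio3 from 0 as above. Dlk1 of the same domain fell from 34/45 to 6/8 (-2.34 ± 0.18). Peg10 dipped to 8/9 on day 3 from 22/23 and was 50/44 on day 7 (1.03 ± 0.09).

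Secreted signals of the fibroblast fell with its matrix. Of 26 TGF-beta and BMP genes that passed the filter 15 fell and 4 rose (median -0.81, where 27.5% of all genes tested fell). The BMP antagonist Grem1 read 176/176, 101/103, 44/44 and 12/12 on days 1, 3, 5 and 7 (-3.77 ± 0.051, adjusted p = 4.24e-21). The activin antagonist Fst was 368/364, 130/144, 50/48 and 24/19 (-4.04 ± 0.085). Both lost ground in every interval. The activin subunit Inhba went from 24/19 to 1/0 (-3.98 ± 0.22). Tgfb1, the founding ligand, went from 59/63 to 9/9 (-2.63 ± 0.11). The 4 that rose were Tgfbr1 (12/14 to 19/17), Id2 (59/59 to 84/72), Id4 (5/5 to 18/21) and Id3, an inhibitor of differentiation that BMP signals induce, which was 20/18 on day 1, 42/41 on day 5 and 101/96 on day 7 (2.32 ± 0.10, adjusted p = 1.71e-13).

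Of 29 inflammatory and protease genes that passed the filter 20 fell and 5 rose (median -1.42, where 27.5% of all genes tested fell). Timp2, an inhibitor of metalloproteinases, was 638/654, 318/324, 184/179 and 85/78 (-2.97 ± 0.048, adjusted p = 5.69e-20). Cxcl12, a chemokine of stromal cells, was 27/25 and then 2/1 (-3.46 ± 0.24). The risen were Ccl2 (102/84 to 267/252, with 491/518 on day 5), Ccl7 (185/183 to 212/226), Ccl8 (5/8 to 47/55), Cxcl5 (1/0 to 6/6) and Saa3 (8/9 to 63/60), 4 chemokines and an acute phase protein. Ccl2, Ccl7 and Ccl8 were higher on days 3 and 5 than on day 7 in every library. Among 17 AP-1 and immediate early genes 11 fell and 1 rose, where 27.5% of all genes tested fell. Fosl1, a partner of Jun, went from 66/64 to 11/11 (-2.46 ± 0.1, adjusted p = 3.87e-14), and Egr1, a growth factor-induced zinc finger factor, from 44/46 to 9/8 (-2.28 ± 0.28). Jun was 63/60 and 68/64 (adjusted p = 0.229), and Jund rose from 94/89 to 288/267 (1.59 ± 0.075).

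Lysosomal genes fell by small amounts, 20 of 25 with 3 risen (median -0.55, where 27.5% of all genes tested fell). The protease Ctsd went from 1273/1266 through 1227/1222 and 819/799 to 560/556 (-1.18 ± 0.037, adjusted p = 7.3e-16), and Lamp1, a membrane protein of the lysosome, from 1049/1028 to 698/674 (-0.60 ± 0.031). Hexa, a hexosaminidase subunit, fell from 154/143 to 97/98 (-0.60 ± 0.049).

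Metabolic lists had members in both directions. Of 26 glycolysis and hypoxia genes that passed the filter 10 rose and 8 fell, shares near those of all genes tested (median -0.01, which changes sign under quantile normalization). Several enzymes were lower on days 3 and 5 and back near their first level on day 7. Pkm, pyruvate kinase, read 2064/2134, 1501/1540, 1588/1553 and 2107/2024 on days 1, 3, 5 and 7 (adjusted p = 0.616). Aldoa, aldolase A, was 1190/1232, 967/975, 915/932 and 1229/1170 (adjusted p = 0.778). From day 5 to day 7, 16 of the 26 rose (9.82% of all genes tested rose). The glucose transporter Slc2a1 rose from 31/29 to 127/104 (1.90 ± 0.087, adjusted p = 2.8e-13), and its relative Slc2a3 from 10/11 to 81/81 (2.84 ± 0.17). Of 24 sterol and lipid synthesis genes 13 fell and 6 rose (27.5% and 36.1% of all genes tested did). Fdps, farnesyl diphosphate synthase, went from 570/558 to 323/303 (-0.85 ± 0.047), and Nsdhl, a later enzyme of the sterol pathway, from 119/124 to 59/52 (-1.12 ± 0.081). Of 20 genes of the integrated stress response 9 rose and 7 fell, where 36.1% and 27.5% of all genes tested did. The amino acid transporter Slc7a3 went from 7/6 to 178/164 and 205/205 (4.78 ± 0.096, adjusted p = 1.03e-18). Phgdh, the first enzyme of serine synthesis, went from 149/168 to 56/52 and 53/49 (-1.62 ± 0.061). Nuclear genes of the respiratory chain moved little, 8 of 27 up (29.63%) and 4 down (14.81%), with a median of 0.05. Both shares were below the 36.1% and 27.5% of all genes tested. The number risen was 3 with only the groups of day 1 and day 7 fitted, and it also dropped in fits that left out a library.

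Markers of other cell types were counted in the same way. Of 34 epidermal genes 18 passed the filter, 7 rose (38.89%, against 36.1% of all genes tested) and 9 fell (50%, against 27.5%). Trp63, the basal keratinocyte regulator, was listed at 0 on day 1, read 10/10 on day 5 and 4/3 on day 7 (adjusted p = 5.32e-08 for day 7 against day 1). The cornified envelope gene Sprr3 went from 10/11 to 1/0 (-3.02 ± 0.25). Of 22 regulators of germ layers and trophoblast only 6 passed the filter, and 4 rose, where 36.1% of all genes tested did. They included Tfap2c, a factor of trophoblast and germ cells, listed at 0 on day 1 and at 8/11 on day 7 (adjusted p = 2.65e-09), and Gata2 (7/7 to 15/10). Gata6 fell from 8/7 to 2/2 (-1.50 ± 0.30). Of 12 endothelial markers 4 passed the filter. Tek, a receptor of angiopoietins, rose from 16/16 to 59/63 (1.87 ± 0.085), Kdr and Esam fell, and the defining Cdh5 and Pecam1 were at 2 or less. Of 15 neural markers only 5 passed the filter, and 4 of these fell, where 27.5% of all genes tested did. Stmn2, a microtubule regulator of neurons, fell from 401/369 to 114/114 (-1.75 ± 0.065). Tubb3, Map2 and Syt1 fell as well, and Rbfox3, Sox10 and Dcx were listed at 0 throughout.

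The week divided into 3 unequal intervals. From day 1 to day 3, 5760 genes changed (43.5%), 3192 up and 2568 down. From day 3 to day 5, 3186 changed (24.1%), 1860 up and 1326 down (10%), and from day 5 to day 7, 3822 changed (28.9%), 1299 up and 2523 down. The share of rises among the changed genes in the first and second intervals was 55.4% and 58.4%, and 42.1% and 46.6% after quantile normalization, which moved the median change of all genes in the first interval from 0.029 to -0.0814. Without the first replicate of day 3 the count of the second interval was 2083, more than 1.5 times lower. In the last interval more genes fell than rose, also after quantile normalization (1730 up and 2352 down). The fallen genes (19.07% of all tested) included many of the matrix (25 of 32), of the inflammatory list (22 of 29) and of the interferon response (37 of 43).

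Trh, Tgtp1, Ifi47, Fmod and Tagln were among the genes with the largest steps of the first interval, and those of the later intervals were of other kinds. From day 3 to day 5 the leading rises were those of Cd74, H2-Q6 and Dmgdh. Cd74, the invariant chain of class II presentation, went from 0/2 to 22/27 (3.87 ± 0.31 on the log2 scale, adjusted p = 3.89e-08). H2-Q6, a nonclassical class I gene, went from 7/7 to 87/91 (3.49 ± 0.15), and Dmgdh, a mitochondrial enzyme of choline breakdown, from 4/4 to 42/44 (3.14 ± 0.13). Cd74 did not pass when only days 3 and 5 were fitted (adjusted p = 0.0725). The leading falls of that interval were Tnc (-1.73 ± 0.086), Chsy3 (-1.53 ± 0.19) and Gpr50, an orphan receptor related to those of melatonin (91/74 to 26/31, -1.50 ± 0.12). Chsy3 did not pass in the fit of days 3 and 5 alone (adjusted p = 0.0631). From day 5 to day 7 Ndufa4l2, a hypoxia-induced mitochondrial protein, went from 0 in both libraries to 47/27 (adjusted p = 5.55e-08 by limma). Dppa5a, described above, had the next change (5.03 ± 0.28). Slc16a3, the lactate exporter, went from 1/1 to 39/24 (3.98 ± 0.35, adjusted p = 4.91e-08). For Ndufa4l2 and Slc16a3 the first day 7 library was well above the second. The leading falls from day 5 to day 7 were Lyz2, macrophage lysozyme (37/35 to 9/7, -2.05 ± 0.10), Iigp1, an immunity-related GTPase (115/123 to 32/32, -1.86 ± 0.21), and Plcb1, a phospholipase (28/30 to 8/7, -1.82 ± 0.11). Of the 3192 genes that rose in the first interval, 813 fell in the last (25.5% of the first list and 32.2% of those that fell), and 357 rose again (11.2% of the first list and 27.5% of those that rose in the last interval).

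Much of this week was shared with cells that never met the inhibitor. In the ctr arm 7217 genes changed from day 1 to day 7 (54.6%), 3760 up (28.4%) and 3457 down (26.1%). Of these, 3170 of the risen (84.3% of the ctr list and 66.4% of the pre_p38i list) and 2742 of the fallen (79.3% and 75.4%) were in the pre_p38i list of the same direction. Across the 13230 genes, which are not independent replicates, the changes of the 2 arms correlated at r = 0.888, with no sample in common. The difference between the 2 changes was then tested gene by gene in the same limma model, and 2207 genes passed (16.7%), 959 with a higher (7.25%) and 1248 with a lower (9.43%) change in pre_p38i.

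**Figure D4:**
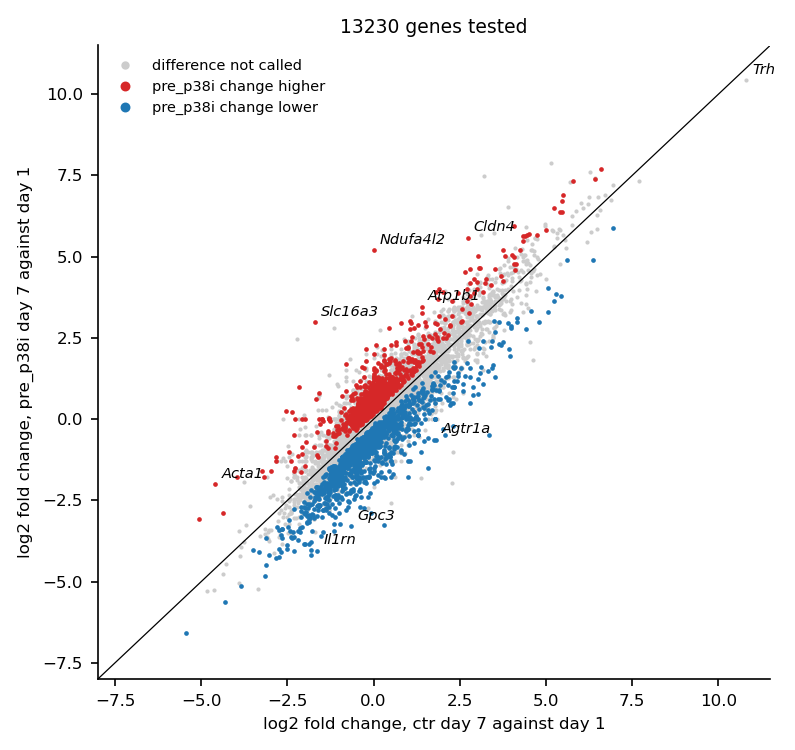
Change from day 1 to day 7 of each of the 13230 genes tested in the pre_p38i arm (y axis) against that in ctr (x axis), both as log2 fold changes on the log2(value + 1) scale, with genes whose changes differ coloured and a line of equality. Most genes lie along the line (r = 0.888), and 2207 lie off it by the test.

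Mitosis genes stood out in this test, in which 7.25% of all genes tested had a higher change. Of the 38, 33 had a higher change in pre_p38i than in ctr and none a lower one (median difference 0.59, 31 after quantile normalization). So did 5 of 33 replication genes (median difference 0.34). Their count was 3 with only the compared groups fitted and 3 without a trend in the spread. Both medians were below 1 on the log2 scale, a 2-fold change. In ctr, 19 of the 38 fell and 2 rose over the week (median -0.23). Ube2c was 291/277 on day 1 and 287/261 on day 7 of ctr, against 253/264 and 402/398 in pre_p38i (difference 0.68 ± 0.10, adjusted p = 9.51e-05). Ccnb1 was 103/109 and 111/105 in ctr, against 101/99 and 194/177 (difference 0.86 ± 0.14), and Top2a 116/114 and 127/125, against 121/114 and 214/217 (difference 0.74 ± 0.099). On day 1 the arms were close in these 3 genes, and on day 7 both pre_p38i libraries were above both ctr libraries.

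**Figure D5:**
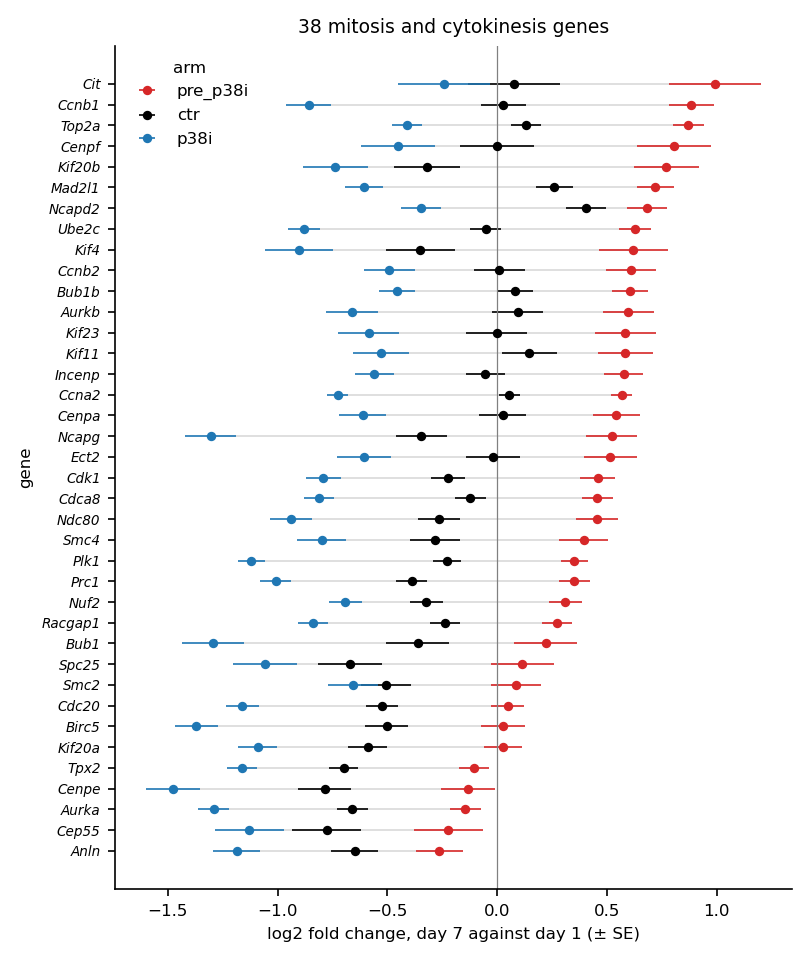
Change from day 1 to day 7 of the 38 mitosis and cytokinesis genes in the pre_p38i, ctr and p38i arms, as log2 fold change with its standard error (x axis), a row per gene. The pre_p38i points lie furthest right for all 38 genes, with 27 genes risen, the ctr points straddle 0 and the p38i points lie below it, with 37 fallen.

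Matrix and signalling genes had lower changes in pre_p38i than in ctr: 20 of 32 matrix genes had a lower change and 2 a higher one, as did 13 of 29 inflammatory and protease genes with 2 higher, 10 of 26 TGF-beta and BMP genes with none higher, 9 of 25 lysosomal genes with 1 higher, and 8 of 23 mesenchymal genes with 1 higher. Of all genes tested 9.43% had a lower change. The TGF-beta and BMP and the mesenchymal counts were less stable. Without the second ctr replicate of day 1 the TGF-beta and BMP count was 6, and with only the 4 groups fitted it was 4. The mesenchymal count was between 4 and 5 without the second pre_p38i replicate of day 1, the first of pre_p38i day 7, or the second ctr replicate of day 1 or day 7, and 5 with only the 4 groups fitted. Dcn, the proteoglycan decorin, went from 239/227 to 51/42 in pre_p38i and from 177/182 to 104/102 in ctr (difference -1.51 ± 0.11, adjusted p = 1.51e-08). Grem1 went from 176/176 to 12/12 in pre_p38i and from 367/358 to 98/105 in ctr (difference -1.94 ± 0.072). Timp3, a metalloproteinase inhibitor, went from 425/429 to 123/121 and from 437/408 to 330/339 (difference -1.46 ± 0.055). Ctgf fell in pre_p38i and was 198/189 and 235/268 in ctr (difference -1.75 ± 0.095). Spp1 was 698/712 and 351/361 in ctr against 620/598 and 57/71 (difference -2.25 ± 0.12). Postn, a matrix protein, was 71/64 and 28/30 against 44/47 and 8/8 (difference -1.18 ± 0.13). On day 1 Timp3 and Ctgf were at like levels in both arms, whereas Grem1, Spp1 and Postn were lower and Dcn higher in pre_p38i. Igf2 (714/703 and 156/163 in ctr, difference -1.21 ± 0.063) and H19 (184/175 and 297/348, difference -1.45 ± 0.099) were higher in pre_p38i than in ctr on day 1 and lower on day 7. Egr1 (21/17 and 17/18 in ctr, difference -2.17 ± 0.39) differed on day 1 as well.

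Of 26 glycolysis and hypoxia genes, 12 had a higher change in pre_p38i than in ctr and 2 a lower one (medians of the change -0.01 and -0.15). Of all genes tested 7.25% had a higher change and 9.43% a lower one. Tpi1, triosephosphate isomerase, was 444/424 on day 1 and 645/666 on day 7, against 426/427 and 433/437 in ctr (difference 0.57 ± 0.061). Ldha, lactate dehydrogenase, was 856/874 and 828/765, against 825/820 and 536/526 (difference 0.51 ± 0.057). Of the largest differences, Ndufa4l2 read 47/27 on day 7 of pre_p38i and 1/0 in ctr (adjusted p = 1.28e-05), and Slc16a3 39/24 and 1/1 (difference 4.68 ± 0.49, adjusted p = 1.83e-06). Cldn4 went from 0/1 to 66/68, and in ctr from 4/4 to 38/27 (difference 2.86 ± 0.51). Its difference therefore lies partly on day 1, where its values were near the floor. Atp1b1, a subunit of the sodium pump whose exons overlap those of Nme7 on the other strand, went from 7/7 to 90/85, and in ctr from 15/14 to 40/40 (difference 2.06 ± 0.22). Atp1b1 was thus also lower in pre_p38i than in ctr on day 1. The higher change of Acta1, skeletal actin, came with a difference on day 1 (3/3 in pre_p38i and 33/33 in ctr) and not on day 7 (0/0 and 0/1), and did not pass with a pseudocount of 0.1 (adjusted p = 0.429). Gpc3, a cell-surface proteoglycan, was likewise apart on day 1, with 61/65 in pre_p38i and 10/7 in ctr, and near equal on day 7, with 6/5 and 5/5 (difference -2.66 ± 0.31). The other large differences ran downward. The angiotensin receptor Agtr1a was 52/48 and 32/32, against 23/24 and 88/81 in ctr (difference -2.43 ± 0.16). The interleukin-1 receptor antagonist Il1rn was 39/40 and 1/2, against 30/24 and 9/7 (difference -2.41 ± 0.31). Esm1, a secreted proteoglycan of endothelium, was 12/11 and 7/7, against 8/6 and 25/27 (difference -2.41 ± 0.23), and Akr1c18, a steroid dehydrogenase, 21/21 and 9/7, against 10/11 and 23/23 (difference -2.36 ± 0.21). Agtr1a, Esm1 and Akr1c18 fell in pre_p38i and rose in ctr.

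Pluripotency, epithelial and interferon genes rose in both arms. A higher change than in ctr was called for 1 of 24 pluripotency genes, with Spp1 lower, 4 of 29 epithelial genes and 8 of 43 interferon genes (between 5 and 14 under other pseudocounts), where 7.25% of all genes tested had one. Elf3 was among them, with 93/87 on day 7 of pre_p38i and 39/34 of ctr, and 0 in both arms on day 1 (adjusted p = 0.00676). Oas1a read 152/160 and 111/116 on day 7 (day 1 2/2 and 4/4, difference 1.19 ± 0.18), and H2-K1 1724/1738 and 1476/1338 (day 1 73/68 and 80/83, difference 0.51 ± 0.10). Psmb9 read 99/107 and 50/38 on day 7, from 0 in both arms (adjusted p = 0.0107). For Nanog, 28/28 on day 7 of pre_p38i and 12/16 of ctr gave an adjusted p of 0.0893.

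The difference from the p38i arm, in which the inhibitor was present during induction, took in more genes. This test shares the pre_p38i libraries with the one against ctr. In p38i 7259 genes changed over the week (54.9%), 4345 up (32.8%) and 2914 down (22%), of which 2826 of the risen (65% of the p38i list and 59.2% of the pre_p38i list) and 1860 of the fallen (63.8% and 51.1%) moved the same way in pre_p38i, while 335 rose in pre_p38i but fell in p38i and 444 fell in pre_p38i but rose in p38i. The changes correlated at r = 0.721 over genes. The test of the difference called 5359 genes (40.5%), 2325 higher (17.6%) and 3034 lower (22.9%) in pre_p38i. All 38 mitosis genes and 30 of 33 replication genes had a higher change (medians 1.22 and 0.99), with 37 and 28 of them fallen in p38i. Ube2c was 237/253 and 124/142 there (difference 1.51 ± 0.10, adjusted p = 7.15e-10) and Top2a 89/87 and 63/69 (difference 1.28 ± 0.099).

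Identity genes followed the same split. Of all genes tested 17.6% had a higher and 22.9% a lower change than in p38i. Of 24 pluripotency genes 12 had a higher change than in p38i and 1 a lower one (6 with a minimum mean of 5), of 29 epithelial genes 21 and 1 (11 with that minimum, and 12 with a pseudocount of 0.1), and of 43 interferon genes 22 and 3. Nanog was listed at 0 on day 1 in both arms and read 28/28 on day 7 of pre_p38i and 1/1 of p38i (adjusted p = 1.18e-07). Cldn7, also at 0 on day 1 in both arms, read 31/30 and 4/3 (adjusted p = 5.03e-06), and H2-K1 1724/1738 and 483/437 (difference 2.32 ± 0.10). Of 32 matrix genes 28 had a lower change and 1 a higher, and of 23 mesenchymal genes 16 and 2. In p38i 16 of the matrix genes rose and 12 fell. Dcn was 157/162 on day 1 and 225/231 on day 7 (difference -2.82 ± 0.11, adjusted p = 2.86e-13). Ctgf was 190/161 and 451/466 (difference -2.76 ± 0.095), and the imprinted H19 143/135 and 677/762 (difference -2.97 ± 0.099). All 3 were higher on day 7 than on day 1 in p38i and lower in pre_p38i.

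The largest differences from p38i in the higher direction were those of Mylpf, Ndufa4l2, Cldn4, Dppa5a and Tgtp2. Mylpf, a fast-muscle myosin light chain, was 1/0 on day 1 and 80/87 on day 7, against 3/4 and 4/4 in p38i (difference 5.74 ± 0.61, adjusted p = 3.29e-07). Cldn4 read 0/1 on day 1 and 66/68 on day 7, against 5/5 and 6/4 (difference 5.61 ± 0.51), so its arms were apart on day 1 as well. Ndufa4l2, Dppa5a and Tgtp2 were at 4 or less in both day 7 libraries of p38i. In the lower direction the largest differences were those of Gpc3, Agtr2, Agtr1a, Tnc and Gap43. Gpc3 was 61/65 and 6/5, against 7/9 and 11/10 (difference -3.66 ± 0.31), and was thus apart on day 1. The angiotensin receptor Agtr1a was 52/48 and 32/32, against 8/10 and 70/68 (difference -3.44 ± 0.16), and Agtr2, its relative, 7/8 and 13/14, against 0 in both libraries and 22/19 (adjusted p = 1.22e-12). Tnc was 186/199 and 5/4, against 200/188 and 57/56 (difference -3.38 ± 0.12). Gap43, a growth cone protein, was 52/56 and 3/4, against 38/44 and 29/38 (difference -3.33 ± 0.20). Tnc was at a like level in both arms on day 1, so that its difference lies on day 7.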

How the data were processed

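RNA-seq libraries of reprogramming MEFs were compared. Total RNA was enriched with oligo-dT, and strand is not stated. Per the labels, the submitters' processing notes name bcl2fastq, Bowtie2 2.2.5 and RSEM 1.3.0, with the builds mm10 and hg38. The deposited table is a score per gene, whole numbers with nearly the same sum in every library, read here as TPM rounded down by the authors. No counts were used here, so sequencing depth is unknown.

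The 28 libraries form 14 groups of 2, and all of them entered 1 limma model (R 4.3.3, limma 3.58.1) of log2(value + 1), with a trend in the spread and Benjamini-Hochberg adjustment over 13230 of 50600 genes whose mean was at least 1. Calls have an adjusted p under 0.05. The fit was tested on simulated data. Days were compared within pre_p38i, and its change from day 1 to day 7 with that of ctr and p38i by a difference of differences.

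Named genes were the 12 largest rises and 12 largest falls of day 7 against day 1 among called genes whose days do not overlap and whose mean was at least 20 in the higher day, 3 and 3 per interval, 5 and 5 per difference between arms (a mean of at least 20 in 1 of the groups), clone and predicted symbols left out, and list members. The comparison and the gene lists were chosen with earlier results of these data known, so they are no independent support. Coordinates are those of the deposited table and of GENCODE M21 (GRCm38), promoters those of RefSeq, and near copies were found with blastn 2.17.0. The 27 gene names that a spreadsheet had turned into dates were not named. A few genes that the rule or the lists hold are not reported here. Alternatives were other pseudocounts (0.1 and 5), filters (none, or a mean of at least 5), groups in the fit, quantile normalization, a replicate block, no trend, a minimum size of change and leaving out each library.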

Additional observations from a re-analysis of the deposited data

Results flagged for a closer look

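Differences between arms in the change from day 1 to day 7 are given here because the difference itself passed limma's test, and they are listed as values. Against ctr, 2207 genes differed, 959 higher (7.25% of all genes tested) and 1248 lower (9.43%) in pre_p38i. Against p38i 5359 differed, 2325 higher (17.6%) and 3034 lower (22.9%). Higher changes than in ctr were called for 33 of 38 mitosis and cytokinesis genes, 5 of 33 DNA replication genes, 12 of 26 glycolysis and hypoxia genes, 8 of 43 interferon genes and 4 of 29 epithelial genes. Lower changes than in ctr were called for 20 of 32 matrix genes, 13 of 29 inflammatory and protease genes, 10 of 26 TGF-beta and BMP genes, 9 of 25 lysosomal genes and 8 of 23 mesenchymal genes. Higher changes than in p38i were called for 38 of 38 mitosis genes, 30 of 33 replication genes, 22 of 43 interferon genes, 21 of 29 epithelial genes and 12 of 24 pluripotency genes, and lower ones for 28 of 32 matrix genes and 16 of 23 mesenchymal genes. Members called the other way, where there were any, are given above. With only the compared groups fitted, the counts against ctr were 4 for TGF-beta and BMP, 5 for mesenchymal and 3 for replication genes. Under other pseudocounts the interferon count against ctr was 5 or 14. With a minimum mean of 5, the counts against p38i were 6 for pluripotency and 11 for epithelial genes.

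On the log2(value + 1) scale, the differences from ctr were 5.20 for Ndufa4l2, 4.68 for Slc16a3, 2.86 for Cldn4, 2.59 for Acta1 and 2.06 for Atp1b1, and -2.66 for Gpc3, -2.43 for Agtr1a, -2.41 for Il1rn, -2.41 for Esm1 and -2.36 for Akr1c18. Among cell cycle genes they were 0.68 for Ube2c, 0.86 for Ccnb1 and 0.74 for Top2a. Among matrix and secreted genes they were -1.51 for Dcn, -1.18 for Postn, -1.46 for Timp3, -1.75 for Ctgf, -1.94 for Grem1 and -2.25 for Spp1. The imprinted Igf2 and H19 gave -1.21 and -1.45, and Egr1 gave -2.17. Ldha and Tpi1 gave 0.51 and 0.57, the epithelial factor Elf3 1.28, and the interferon genes Oas1a, Psmb9 and H2-K1 1.19, 1.22 and 0.51.

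Against p38i the differences were 5.74 for Mylpf, 5.70 for Ndufa4l2, 5.61 for Cldn4, 5.53 for Dppa5a and 4.99 for Tgtp2, and -3.66 for Gpc3, -3.65 for Agtr2, -3.44 for Agtr1a, -3.38 for Tnc and -3.33 for Gap43. They were 1.51 for Ube2c, 1.28 for Top2a, 3.86 for Nanog, 2.82 for Cldn7 and 2.32 for H2-K1, and -2.82 for Dcn, -2.76 for Ctgf and -2.97 for H19. Genes listed at 0 in a group (Ndufa4l2, Elf3, Psmb9, Dppa5a, Tgtp2, Agtr2, Nanog, Cldn7 and Acta1) owe the size of their value to the pseudocount. Cldn4 and Mylpf, each listed at 0 in a single day 1 library of pre_p38i, owe it in part.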

How the results depend on the processing

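Depth is unknown, values are rounded down to whole numbers, and genes under a mean of 1 were not tested, so changes among the lowest genes were not detectable here. Leaving a replicate out leaves 1 library in its group, which is then assumed to vary like the other groups.

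The counts of genes called moved by more than 1.5 times in 3 settings. When a change of at least 1 on the log2 scale was also required, day 7 against day 1 gave 3209 genes, day 3 against day 1 1644, day 5 against day 3 475, day 7 against day 5 722, the difference from ctr 533 and the difference from p38i 1969. When only the compared groups were fitted, day 5 against day 3 gave 1705 genes and day 7 against day 5 2141. Without the first replicate of pre_p38i day 3, day 5 against day 3 gave 2083. With 1 replicate left out at a time, the counts ranged from 7465 to 7587 for day 7 against day 1, from 4527 to 4785 for day 3 against day 1, from 2083 to 2244 for day 5 against day 3, from 2715 to 2950 for day 7 against day 5, from 1588 to 1810 for the difference from ctr and from 4688 to 4900 for that from p38i. Leaving out the ctr and p38i libraries was added after the data were seen. Quantile normalization moved the median change of day 7 against day 1 from 0.103 to -0.030 and the risen among its called genes from 56.8% to 47.1%, with 3873 up and 4343 down.

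Within the arm, libraries that share a replicate number showed no common deviation (r between -0.0267 and 0.0371 over genes), so the numbers were not used to pair them. With a replicate block the counts were 8426, 5766, 3165, 3802, 2189 and 5343 in the order above.

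Of 4005 recomputed values of named genes none changed direction, 3893 kept their side of the threshold, 95 lost the call (44 of them by the minimum size) and 17 gained one. Besides those named above, calls that were lost in some setting include those of C1qa, C1qb, Col6a1, Col15a1, Eln, Foxc1, Ldha, Lefty1, Mx1, Snai1 and Zeb2. Of 902 recomputed list counts 67 moved by more than 1.5 times, among them the macrophage genes lower on day 7, from 6 to between 1 and 3. Median changes of the G1, glycolysis and stress response lists, all near 0, changed sign under quantile normalization (0.00851 to -0.0351, -0.00906 to 0.00328 and 0.0176 to -0.114). The cause was not tested.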
